A study of Homo sapiens with 22 samples.

Results

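The 37 genes described here carry out or time DNA replication: origin licensing factors, the MCM helicase and its GINS and CDC45 partners, polymerase, clamp and single-strand binding proteins, enzymes of deoxynucleotide supply, chromatin assembly factors and the cyclin and E2F proteins that open S phase. The rule that picks them is a list of gene symbols, applied to the 18852 genes named on the array, and the list was drawn up with earlier results of these data known. All 37 were on the array, with 60 probes, and all 37 were among the 10147 genes tested, with 57 tested probes. The brightest tested probe stood for each gene, and that probe was detected on every one of the 22 arrays for every member.

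RNA came from HEK293T, a transformed line of human embryonic kidney origin. These cells make SV40 large T antigen, a viral protein known to bind the retinoblastoma proteins that hold E2F in check. One arm was transfected with siRNA (small interfering RNA) targeting Sat III, short for Satellite III, whose transcripts are non-coding RNAs of pericentromeric repeats that human cells make when heated, and the other a scrambled siRNA. In both arms cells were heat-shocked (42 °C for 1 h), heat-shocked and then left to recover for 6 h, or untreated at 37 °C. With Sat III siRNA there were 3 samples at heat shock, 4 in recovery and 3 without treatment; with scrambled siRNA there were 4 of each kind. No probe is named for Sat III, so its knockdown was not analysed here, and the title of the series places the question between the heat shock response and cell proliferation. The labels give the replicates numbers but do not tell whether they were grown apart; the p-values therefore reflect a spread between samples that could be technical only.

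Replication starts when ORC, CDC6 and CDT1 load MCM2 to MCM7 as a ring onto DNA before S phase. Cyclin E with CDK2, and a second kinase, then recruit CDC45 and the GINS complex, which turn the ring into the active CMG helicase. E2F proteins are known to switch on most of these genes at the border of G1 and S phase in human cells, so their transcripts tend to move together in a cycling culture, and in cells that keep dividing they are rarely silent.

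The start regions of the members were searched for E2F words. Of the 33 members with an entry in the RefSeq promoter table of GRCh38.p14 (CDK2, MCM4, MCM5 and RPA2 have none there), 16 held at least 1 of the E2F words TTTCCCGC, TTTGGCGC, TTTGCCGC and TTTCGCGC on either strand, in a window of 250 bases before to 50 bases after the first listed start. That is 48.5% of the members, against 3.33% of all 27305 promoters (908). The box CCAAT, on either strand, was in 20 of the 33 (60.6%), against 35.7% of all promoters. The heat shock element of 3 alternating units, searched on both strands, was in 0 of the 33, against 0.487% of all promoters. These are matches of letters, not sites of binding, and the promoters compared were not matched for base content. The regions of 5 genes on which the results below turn are shown with that of MCM6, the member with the most matches (4): GINS2 (chr16:85688905-85689204, minus strand), E2F3 (chr6:20401629-20401928, plus strand), CDC6 (chr17:40287629-40287928, plus strand), CDT1 (chr16:88803539-88803838, plus strand), CCNE1 (chr19:29811741-29812040, plus strand) and MCM6 (chr2:135876394-135876693, minus strand). Each is written in the direction of transcription with the E2F words in capitals.
GINS2: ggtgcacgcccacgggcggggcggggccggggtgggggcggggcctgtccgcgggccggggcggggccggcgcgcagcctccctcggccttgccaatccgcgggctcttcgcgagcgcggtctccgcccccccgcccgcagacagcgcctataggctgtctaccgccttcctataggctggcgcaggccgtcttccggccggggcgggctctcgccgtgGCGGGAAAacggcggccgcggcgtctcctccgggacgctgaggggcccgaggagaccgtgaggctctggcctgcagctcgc
E2F3: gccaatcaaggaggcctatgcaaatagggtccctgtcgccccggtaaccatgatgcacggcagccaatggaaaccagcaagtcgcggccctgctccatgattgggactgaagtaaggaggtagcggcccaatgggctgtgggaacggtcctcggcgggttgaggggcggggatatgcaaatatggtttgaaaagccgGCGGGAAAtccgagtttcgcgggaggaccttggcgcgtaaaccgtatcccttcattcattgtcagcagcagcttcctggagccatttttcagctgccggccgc
CDC6: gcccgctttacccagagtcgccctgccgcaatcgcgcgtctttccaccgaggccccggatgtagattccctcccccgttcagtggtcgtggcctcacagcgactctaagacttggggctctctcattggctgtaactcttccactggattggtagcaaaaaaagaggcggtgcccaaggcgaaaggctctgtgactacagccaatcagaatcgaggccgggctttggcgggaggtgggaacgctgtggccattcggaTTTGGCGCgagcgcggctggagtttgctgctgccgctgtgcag
CDT1: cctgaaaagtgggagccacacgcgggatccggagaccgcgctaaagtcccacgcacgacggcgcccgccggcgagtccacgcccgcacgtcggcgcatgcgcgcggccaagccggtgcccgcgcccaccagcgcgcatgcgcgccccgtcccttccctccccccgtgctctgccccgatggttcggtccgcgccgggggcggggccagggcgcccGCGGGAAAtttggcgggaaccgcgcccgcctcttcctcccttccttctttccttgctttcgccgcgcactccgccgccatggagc
CCNE1: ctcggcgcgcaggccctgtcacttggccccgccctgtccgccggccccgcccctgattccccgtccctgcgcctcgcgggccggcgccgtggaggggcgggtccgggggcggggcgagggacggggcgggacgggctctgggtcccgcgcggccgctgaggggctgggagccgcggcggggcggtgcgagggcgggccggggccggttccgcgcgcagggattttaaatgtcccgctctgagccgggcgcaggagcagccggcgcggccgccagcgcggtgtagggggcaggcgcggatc
MCM6: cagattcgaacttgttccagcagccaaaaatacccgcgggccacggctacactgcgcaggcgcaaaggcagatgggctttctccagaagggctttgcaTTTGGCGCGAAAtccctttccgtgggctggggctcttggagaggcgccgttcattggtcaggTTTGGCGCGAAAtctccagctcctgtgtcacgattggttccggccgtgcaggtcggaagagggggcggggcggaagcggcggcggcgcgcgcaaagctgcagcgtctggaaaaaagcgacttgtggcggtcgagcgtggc
GINS2, E2F3 and CDT1 held the word GCGGGAAA, which is TTTCCCGC on the other strand, beginning at positions -31, -53 and -35 from the start. CDC6 held TTTGGCGC at position 8, MCM6 held 2 copies of TTTGGCGC, each overlapped by GCGCGAAA, and CCNE1 held none of the 4 words in this window.

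Levels are log2 intensities after background correction and quantile normalisation, and differences are on that log2 scale. They are compared within a probe, never between probes. A gene was called at an adjusted p under 0.05, from limma fitted to all 22 arrays and adjusted by Benjamini-Hochberg over all 10147 genes. Before normalisation the median intensity per array was 56.5 to 64.6 in replicates 1 and 2 and 48.9 to 54.8 in replicates 3 and 4, and 13176 to 14863 probes per array were detected. The heat shock genes HSPA6, DNAJB1, HSPA1A and HSPH1 rose at the end of the heat shock in both arms. Of 7 markers of HEK293T cells fixed for the check, 6 were tested, and PAX2 was detected on no array. KRT5 and KRT14 (keratinocytes), PTPRC, CD3E and LYZ (leukocytes) and DCN, CDH5 and VWF (fibroblasts and endothelium) were also detected on no array. The fibroblast markers LUM and COL1A1 were detected, on 22 and 21 arrays. EPCAM, listed with KRT5 and KRT14, was detected on 22 arrays, and the leukocyte marker CD14 on 15. LUM, EPCAM and CD14 each have another probe, and that probe was detected on no array.

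The deposited tables disagree on the labels of 7 arrays. The authors' normalised table has 22 columns. By rank correlation over probes, 15 were the same array as their namesake in the scanner table, 6 were a different array and 1 was none of them. In the scanner table, used here, HSPA6 levels on the 7 arrays followed the treatment in the scanner labels. They were 4.56 and 4.87 for untreated, 12.58 and 12.75 for heat shock and 9.61 to 10.60 for recovery. On the 15 arrays labelled alike in both tables they were 4.59 to 4.89, 12.49 to 13.74 and 9.61 to 10.33. HSPA6 group means with Sat III and scrambled siRNA were 4.64 and 4.77 untreated and 13.31 and 13.17 at heat shock. The gene could not check the label of the arm in those treatments. Results are therefore also given for only the 15 arrays labelled alike, a check chosen after seeing the data. Across the 12 comparisons made, 20 members were called at least once, in 50 results, and 17 members were never called. With the 15 arrays alone 29 of the 50 calls held, and with scaling to each array's median in place of quantile normalisation 2 held; none of the 50 changed direction under either.

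GINS2, a subunit of the GINS complex that completes the replicative helicase, was lower with Sat III siRNA than with scrambled siRNA in all 3 treatments. In untreated cells GINS2 stood at 11.60, 11.56 and 11.48 with Sat III siRNA, against 11.97, 12.01, 12.05 and 12.12 with scrambled siRNA. At the end of the heat shock it stood at 11.24, 11.29 and 11.37 with Sat III siRNA, against 11.94, 12.04, 12.05 and 12.08 with scrambled siRNA. After recovery it stood at 11.40, 11.41, 11.19 and 11.42 with Sat III siRNA, against 12.05, 11.98, 11.91 and 12.10 with scrambled siRNA. Every Sat III array lay below every scrambled array. Averaged over the treatments the log2 difference was -0.62 ± 0.04 (SE), which is 1.54-fold lower (limma adjusted p = 2.57e-10), and it was -0.58 in replicates 1 and 2 and -0.66 in replicates 3 and 4. Sat III siRNA had no replicate 3 in untreated or heat-shocked cells. Here and below, values for replicates 3 and 4 therefore rest on Sat III replicate 4 alone in those treatments. The differences within treatments were -0.48 ± 0.07 untreated (adjusted p = 0.000235), -0.73 ± 0.07 at heat shock (8.67e-07) and -0.65 ± 0.07 in recovery (9.23e-07). On the 15 arrays the 3 differences were -0.42, -0.75 and -0.57, all called. The adjusted p of 2.57e-10 was the lowest of any member in the 12 comparisons. In bulk RNA, fewer cells of a cycle stage and less RNA per cell cannot be told apart. Whether differences between the arms come from loss of Sat III transcripts or from another effect of the siRNA was not tested.

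E2F3, an activating E2F that drives entry into S phase, was also lower with Sat III siRNA in every treatment. Its untreated levels were 10.04, 10.03 and 9.71 in the Sat III arm, against 10.39, 10.50, 10.55 and 10.23 in the scrambled arm. Heat-shocked cells had 9.72, 9.32 and 9.87 in the Sat III arm, against 9.94, 10.13, 10.22 and 10.17 in the scrambled arm. Recovering cells had 9.66, 9.82, 9.79 and 9.56 in the Sat III arm, against 10.36, 10.49, 10.28 and 10.19 in the scrambled arm. The arms did not overlap within any treatment, although the Sat III replicates were spread more widely than those of GINS2. The mean difference was -0.53 ± 0.07, 1.44-fold lower (limma adjusted p = 4.12e-06), with -0.54 in replicates 1 and 2 and -0.52 in replicates 3 and 4. By treatment it was -0.49 ± 0.12 (adjusted p = 0.0161), -0.48 ± 0.12 (0.0154) and -0.62 ± 0.11 (0.000707) in untreated, heat-shocked and recovering cells. The untreated call was lost without scrambled replicate 3 or Sat III replicate 4 (-0.44 to -0.38, adjusted p 0.0518 to 0.121) and on the 15 arrays (-0.44, adjusted p = 0.0681). The heat shock call was lost without Sat III replicate 2 (-0.32, adjusted p = 0.157). Neither E2F3 nor GINS2 has a second probe on the array to compare with.

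RPA1, the large subunit of the protein that coats single-stranded DNA at the fork, was the third member that fell, and here the treatments were less even. At heat shock it read 10.71, 10.79 and 10.94 with Sat III siRNA, against 11.51, 11.33, 11.06 and 11.25 with scrambled siRNA. Untreated cells gave 11.05, 11.01 and 10.77 with Sat III siRNA, against 11.15, 11.19, 11.29 and 11.38 with scrambled siRNA. In recovery the values were 10.98, 11.13, 10.98 and 10.98 with Sat III siRNA, against 11.23, 11.31, 11.10 and 11.16 with scrambled siRNA, and the arms overlapped. Only the heat shock difference, -0.47 ± 0.10, was called among the treatments taken singly (limma adjusted p = 0.00341), while untreated cells differed by -0.31 ± 0.10 (0.0617) and recovering cells by -0.18 ± 0.09 (0.228). Averaged over treatments RPA1 differed by -0.32 ± 0.055, 1.25-fold lower (adjusted p = 0.000139), with -0.34 and -0.31 in replicates 1 and 2 and in replicates 3 and 4. Its second probe fell as well, by 0.43 on the log2 scale, ± 0.05 (adjusted p = 1.63e-06 over probes), and that probe was called in all 3 treatments. RPA2, the partner subunit, moved the other way, by 0.15 ± 0.05 (adjusted p = 0.0184), a call lost without Sat III untreated replicate 1 (0.13, adjusted p = 0.0511) and on the 15 arrays (0.15, adjusted p = 0.111).

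**Figure D1:**
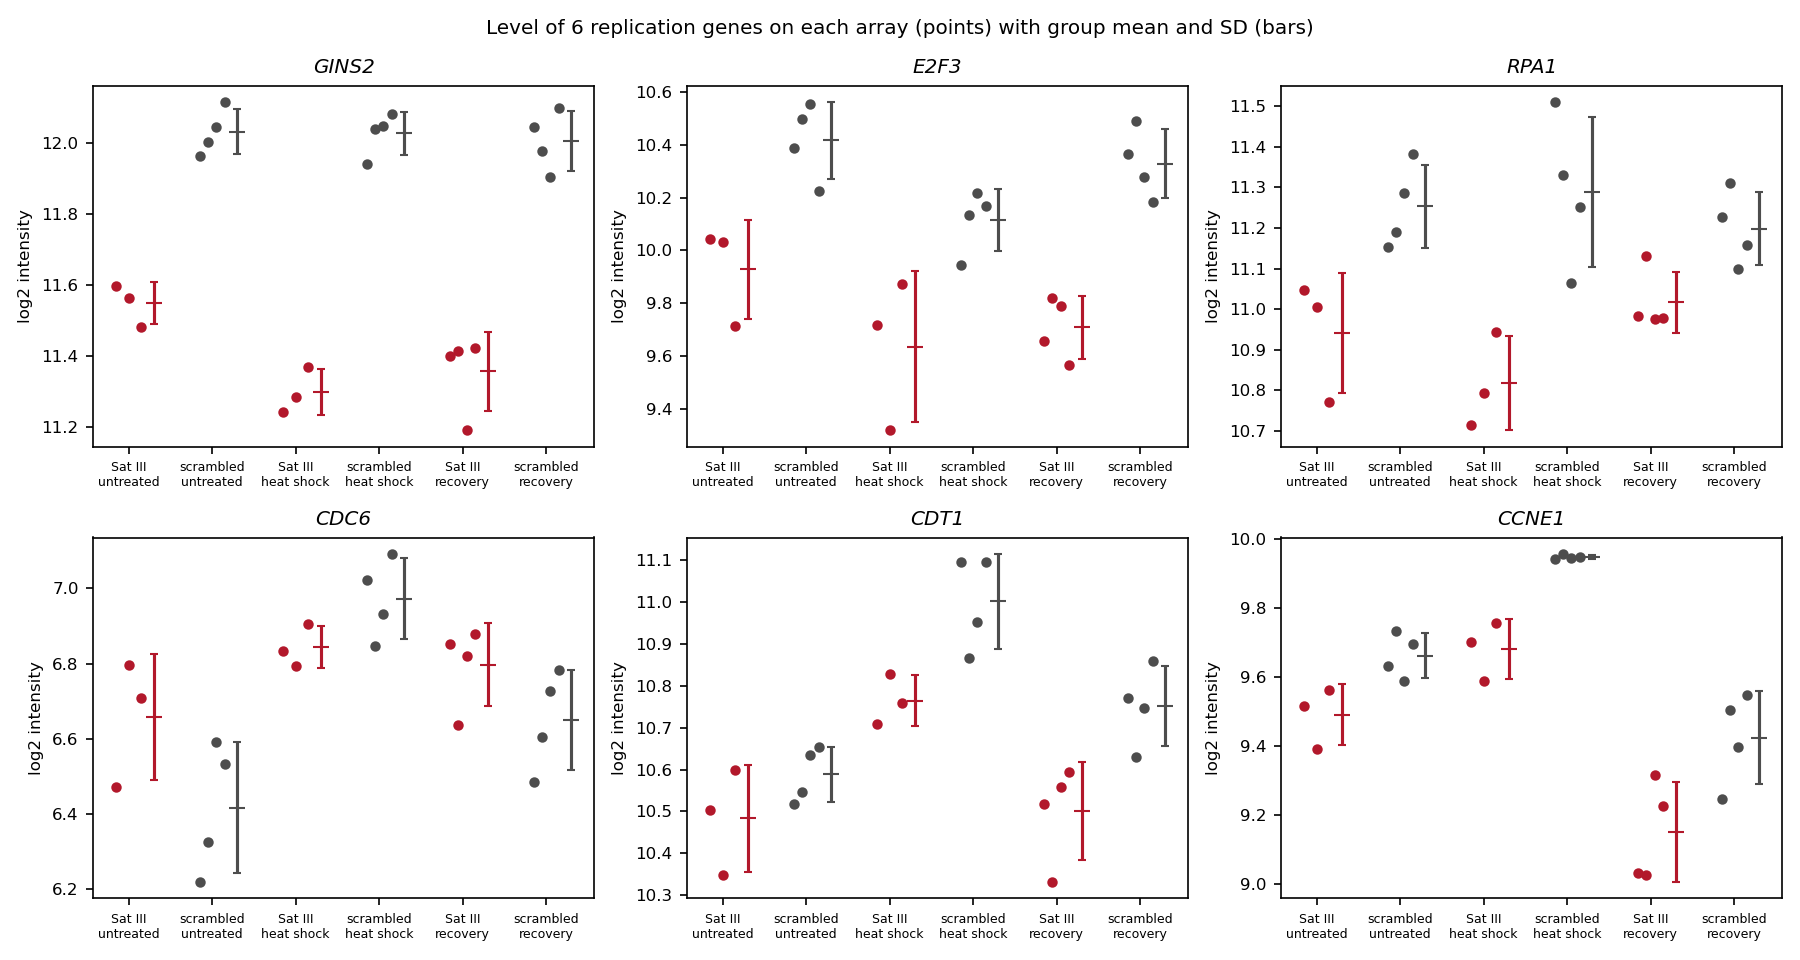
Level (log2 intensity, vertical axis, scaled to each gene) of 6 members on each array, by group, Sat III siRNA in red and scrambled siRNA in grey; bars give the group mean and SD. GINS2 and E2F3 separate the arms within every treatment, while CDC6, CDT1 and CCNE1 are highest in heat-shocked cells of the scrambled arm.

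Over the mean of the treatments 13 members were called between the arms, 3 higher and 10 lower with Sat III siRNA. That is 35.1% of the 37, against 26.1% of all genes tested, of which 11.6% were higher and 14.5% lower. The median difference of the members was -0.05 with Sat III siRNA minus scrambled siRNA, beside 0.01 for all genes. Besides the 3 genes above, CCNE1 (cyclin E1, which drives CDK2 at the G1 to S border) fell by 0.24, GINS3 (another GINS subunit) by 0.20 and CDT1 (the MCM loader) by 0.20 on the log2 scale. MCM4 fell by 0.18, E2F2 (an activating E2F) by 0.18, POLA1 (the catalytic subunit of the priming polymerase) by 0.15 and CHAF1B (a subunit of the chromatin assembly factor that loads histones behind the fork) by 0.14. MCM5 rose by 0.17 and UNG, which removes uracil from DNA, by 0.14. The adjusted p of these 9 results lay between 0.000748 (CCNE1) and 0.0437 (POLA1). POLA1 kept its call without 7 of the 22 arrays, each left out in turn, and lost it without any of the other 15 (-0.16 to -0.13, adjusted p 0.0527 to 0.0958). It was also lost with the replicate number as a block (-0.15, adjusted p = 0.0529), with the mean of probes (-0.11, adjusted p = 0.186) and with no probe filter (-0.15, adjusted p = 0.0617). UNG likewise lost it without any of 15 (0.12 to 0.15, adjusted p 0.0517 to 0.105). On the 15 arrays labelled alike the calls of CHAF1B (-0.17), GINS3 (-0.19), MCM5 (0.17) and UNG (0.18) were also lost. Among the HEK293T markers NEFL (0.46 ± 0.09) and NEFM (0.33 ± 0.05) were higher with Sat III siRNA over the treatments. Among markers of other cell types EPCAM was higher with Sat III siRNA over the treatments (0.22 ± 0.05), while KRT5, KRT14 and SERPINB5 were detected on no array. The part of these markers in the results between the arms was not tested.

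The helicase ring did not move as a unit. MCM4 was lower and MCM5 higher with Sat III siRNA, while MCM2 (0.01), MCM3 (-0.06), MCM6 (-0.02) and MCM7 (-0.05) were not called. The second probe of MCM4 also fell, by 0.29 ± 0.06 on the log2 scale (adjusted p = 0.000556 over probes). A second probe of RFC3, a clamp loader subunit, fell by 0.34 on the log2 scale (adjusted p = 0.00496 over probes), where the brightest RFC3 probe gave -0.02. The 24 members that were not called had 95% intervals of the mean difference within -0.26 and 0.31.

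**Figure D2:**
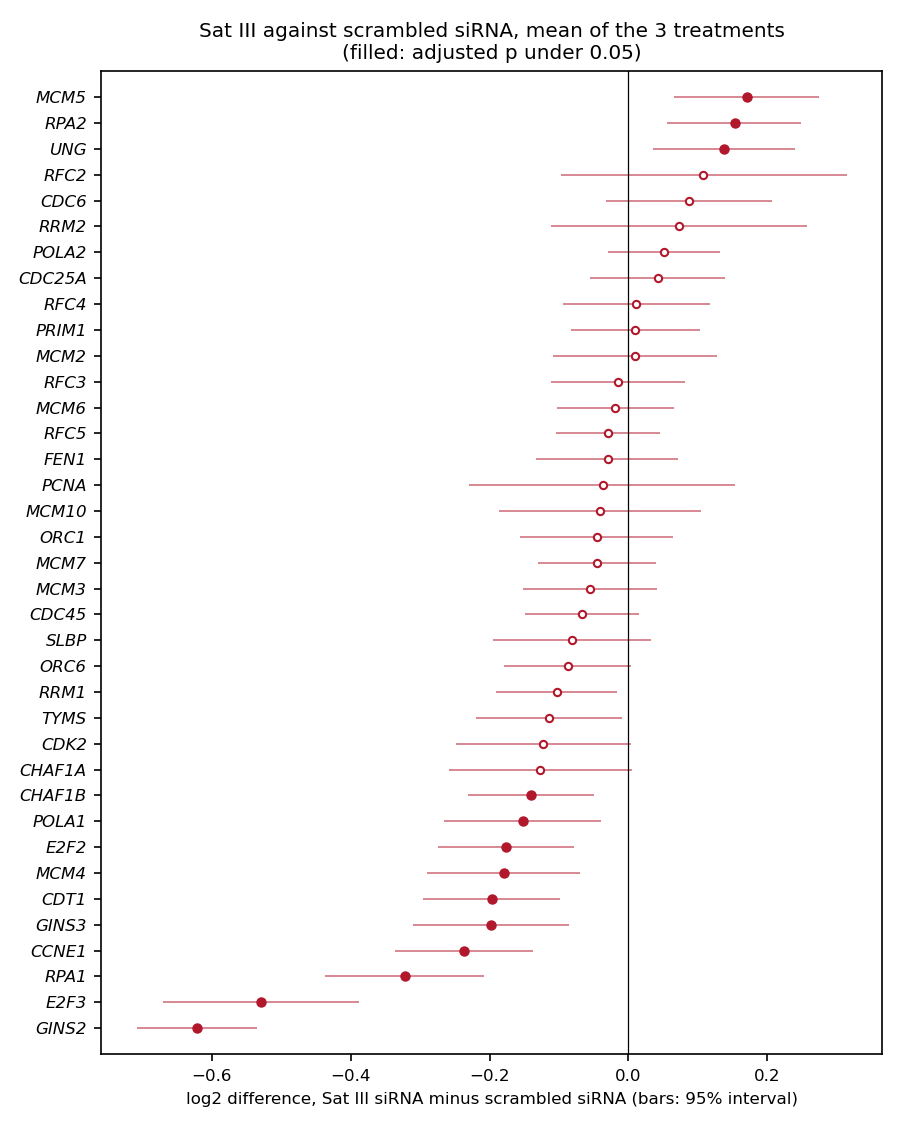
Log2 difference of the 37 members, Sat III siRNA minus scrambled siRNA, mean of the 3 treatments, with 95% intervals (horizontal axis) and filled points where the adjusted p was under 0.05. GINS2 (-0.62), E2F3 (-0.53) and RPA1 (-0.32) lie apart from the others, which run from -0.24 to 0.17.

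Within single treatments the shares of members called were near those of all genes. In untreated cells they were GINS2 and E2F3, both lower with Sat III siRNA, 2 of 37 (5.41%) against 6.09% of all genes, 2.27% higher and 3.82% lower. At heat shock 3 of 37 were lower (GINS2, E2F3 and RPA1; 8.11%, against 7.03% of all genes, 2.35% higher and 4.68% lower). In recovery 5 of 37 were lower (13.5%, against 10.5% of all genes, 3.6% higher and 6.92% lower): GINS2, E2F3, GINS3, CCNE1 and CDT1. None of the 37 was called higher with Sat III siRNA in any of these 3 comparisons. The median of the members was -0.03, -0.07 and -0.06 for untreated, heat-shocked and recovering cells, beside 0, 0.004 and 0.007 for all genes. Recovering cells had GINS3 levels of 9.62, 9.61, 9.83 and 9.78 with Sat III siRNA, against 9.86, 10.06, 9.99 and 10.08 with scrambled siRNA. These do not overlap, and the difference was -0.29 ± 0.09 (limma adjusted p = 0.0389). It was lost without Sat III replicate 1, 2 or 4 or scrambled replicate 2, 3 or 4 (-0.31 to -0.26, adjusted p 0.0521 to 0.113). For CCNE1 the recovery difference was -0.27 ± 0.08 (0.0261), lost without Sat III replicate 1 or 2 or scrambled replicate 2 or 4 (-0.25 to -0.23, adjusted p 0.0779 to 0.0941). For CDT1 it was -0.25 ± 0.08 (0.043), lost without Sat III replicate 1 or 2 or scrambled replicate 1, 3 or 4 (-0.26 to -0.19, adjusted p 0.0707 to 0.156). On the 15 arrays CCNE1 kept its call (-0.35, adjusted p = 0.042), while GINS3 (-0.35, 0.0822) and CDT1 (-0.29, 0.121) did not.

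The heat shock itself moved a small share of the members and of all genes. In the scrambled arm 6 of 37 were called between heat-shocked and untreated cells, 4 higher and 2 lower (16.2%, against 11.7% of all genes, 5.97% higher and 5.7% lower). The median of the members was -0.03, beside -0.02 for all genes. CDC6, CDT1, CCNE1 and E2F2 rose. CDC45, a subunit of the active helicase, and FEN1, the nuclease that trims Okazaki fragments, fell. E2F3 had the lowest value of all members here, -0.30, and was not called (adjusted p = 0.0914). The heat-shocked arrays also enter the contrast of recovery against heat shock given below.

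CDC6 had 7.02, 6.85, 6.93 and 7.09 in heat-shocked cells of the scrambled arm, against 6.22, 6.32, 6.59 and 6.53 in untreated ones. All heat-shocked values were above all untreated ones, and the difference was 0.56 ± 0.09, or 1.47-fold (limma adjusted p = 0.000279). It was 0.66 in replicates 1 and 2, 0.45 in replicates 3 and 4, and 0.56 on the 15 arrays (adjusted p = 0.00653). In the Sat III arm heat-shocked cells had 6.83, 6.79 and 6.91, against 6.47, 6.80 and 6.71 in untreated ones, an overlap, and the difference of 0.19 ± 0.11 was not called (adjusted p = 0.386). Recovering cells had 6.85, 6.64, 6.82 and 6.88 with Sat III siRNA and 6.49, 6.60, 6.73 and 6.78 with scrambled siRNA. Recovery minus heat shock was -0.05 ± 0.10 with Sat III siRNA (adjusted p = 0.798) and -0.32 ± 0.09 with scrambled siRNA (0.0169). Leaving out scrambled recovery replicate 1 or scrambled heat shock replicate 4 ended this scrambled call (-0.28 to -0.27, adjusted p 0.0564 to 0.068), and so did the 15 arrays (-0.33, adjusted p = 0.0671).

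CDT1 had 11.09, 10.87, 10.95 and 11.10 in heat-shocked cells of the scrambled arm, against 10.52, 10.55, 10.63 and 10.65 in untreated ones. These did not overlap, and the difference was 0.41 ± 0.08, or 1.33-fold (limma adjusted p = 0.000859; 0.40 and 0.0105 on the 15 arrays). The Sat III arm also had non-overlapping levels, 10.71, 10.83 and 10.76 in heat-shocked cells, against 10.50, 10.35 and 10.60 in untreated ones, but the difference of 0.28 ± 0.09 was not called (adjusted p = 0.0616). After recovery CDT1 stood at 10.52, 10.33, 10.56 and 10.60 with Sat III siRNA and at 10.77, 10.63, 10.75 and 10.86 with scrambled siRNA. Recovery minus heat shock gave -0.26 ± 0.08 with Sat III siRNA (adjusted p = 0.0293) and -0.25 ± 0.08 with scrambled siRNA (0.0256). The Sat III call was lost without heat shock replicate 2 or 4 or recovery replicate 2 (-0.27 to -0.21, adjusted p 0.0694 to 0.114). The scrambled call was lost without heat shock replicate 1 or 4 or recovery replicate 2 (-0.22 to -0.21, adjusted p 0.0779 to 0.0826). Both were lost on the 15 arrays (-0.34, adjusted p = 0.059, with Sat III siRNA; -0.25, adjusted p = 0.0693, with scrambled siRNA).

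CCNE1 showed the clearest course over time. In the Sat III arm it read 9.52, 9.39 and 9.56 untreated, 9.70, 9.59 and 9.76 at heat shock, and 9.03, 9.03, 9.32 and 9.23 after recovery. In the scrambled arm it read 9.63, 9.73, 9.59 and 9.70 untreated, 9.94, 9.96, 9.94 and 9.95 at the end of the heat shock, and 9.25, 9.50, 9.40 and 9.55 after recovery. In each arm the heat shock values were the highest and the recovery values the lowest, with no overlap between treatments. Recovery was below heat shock by 1.44-fold in both arms, with log2 differences of -0.53 ± 0.085 for Sat III siRNA (limma adjusted p = 9.09e-05) and -0.52 ± 0.08 for scrambled siRNA (4.3e-05). On the 15 arrays these were -0.61 (adjusted p = 0.00135) and -0.56 (0.000347). Heat shock against untreated gave 0.19 ± 0.09 with Sat III siRNA (adjusted p = 0.249) and 0.29 ± 0.08 with scrambled siRNA (0.0186) in a call lost without scrambled untreated replicate 3 (0.26, adjusted p = 0.0593). Recovery against untreated gave -0.34 ± 0.085 with Sat III siRNA (0.0116), lost without Sat III untreated replicate 1 or 4 (-0.33 to -0.30, adjusted p 0.0521 to 0.0592), and -0.24 ± 0.08 with scrambled siRNA (0.0539).

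E2F2 in the scrambled arm had 10.74, 10.65, 10.63 and 10.81 at heat shock and 10.82, 10.81, 10.69 and 10.84 in recovery, against 10.42, 10.43, 10.46 and 10.57 in untreated cells. Both later groups lay above all untreated arrays. The difference was 0.24 ± 0.08 at heat shock (limma adjusted p = 0.0497) and 0.32 ± 0.08 in recovery (0.0102). The heat shock call of E2F2 was lost without any one of 7 of the 8 arrays, the exception being scrambled untreated replicate 4 (0.20 to 0.26, adjusted p 0.0561 to 0.147), and on the 15 arrays (0.24, adjusted p = 0.103). In the Sat III arm E2F2 had 10.50, 10.60 and 10.57 at heat shock and 10.58, 10.31, 10.68 and 10.64 in recovery, against 10.28, 10.28 and 10.44 untreated. Neither difference was called there (0.22 ± 0.09, adjusted p = 0.158, and 0.22 ± 0.08, adjusted p = 0.0945).

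FEN1 had 11.83, 11.80, 11.89 and 12.07 in heat-shocked cells of the scrambled arm, against 12.04, 12.19, 12.22 and 12.28 in untreated ones. The highest heat-shocked array, at 12.07, reached into the untreated range, and the difference was -0.28 ± 0.08 (limma adjusted p = 0.0249; -0.31 and 0.0328 on the 15 arrays). This call was lost without heat shock replicate 1, 2 or 3 or untreated replicate 2, 3 or 4 (-0.28 to -0.25, adjusted p 0.05 to 0.0861). It was also lost with the mean of probes and with only the groups compared. In the Sat III arm heat-shocked cells had 11.81, 11.84 and 11.99, against 12.22, 12.01 and 12.27 in untreated ones, a difference of -0.29 ± 0.09 that was not called (adjusted p = 0.0645). FEN1 recovered to 12.03, 12.13, 12.20 and 12.27 with Sat III siRNA and to 12.13, 12.21, 12.22 and 12.29 with scrambled siRNA. Recovery exceeded heat shock by 0.28 ± 0.09 with Sat III siRNA (adjusted p = 0.0247) and 0.32 ± 0.08 with scrambled siRNA (0.00707). The Sat III call was lost without heat shock replicate 1 or 2 or recovery replicate 3 or 4 (0.24 to 0.27, adjusted p 0.0569 to 0.101) and on the 15 arrays (0.26, adjusted p = 0.119). CDC45 differed between heat-shocked and untreated cells by -0.23 ± 0.075 in the Sat III arm (adjusted p = 0.0618) and by -0.23 ± 0.065 in the scrambled arm (0.0213). Its scrambled call was lost without untreated replicate 1 or 3 or heat shock replicate 3 or 4 (-0.23 to -0.20, adjusted p 0.05 to 0.078) and on the 15 arrays (-0.21, adjusted p = 0.131).

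In the Sat III arm 0 of 37 members were called between heat-shocked and untreated cells, while 7.62% of all genes were, 4.11% higher and 3.51% lower (limma, adjusted p under 0.05). At an unadjusted p under 0.05 there were 8 of the 37 members, beside 1965 of all 10147 genes tested. The lowest adjusted p of the members was 0.0572, for GINS2 (-0.25 ± 0.08). CDC6, CDT1, CCNE1, E2F2, CDC45 and FEN1 had the same sign in both arms. CD14, the one detected of 5 leukocyte markers on the array, was higher at heat shock in this arm (0.96). It was not called in the scrambled arm (0.465), nor was the difference between the arms in its change (0.499). PTPRC, CD3E, LYZ and CD74 were detected on no array, and the part of CD14 was not tested. The median of the members was -0.08, beside -0.02 for all genes. The difference between the arms in the heat shock change was tested directly. It was called for 0 of 37 members and for 0% of all genes, with 2 members and 368 genes at an unadjusted p under 0.05. CDC6, whose arms differed by -0.37 ± 0.14, and GINS2, by -0.25 ± 0.105, were those 2 members (adjusted p = 0.997 each). For the change from heat shock to recovery no such test was made; for the change from untreated cells to recovery the difference between arms was also called for 0 of 37 members and 0% of all genes, with 0 members and 387 genes at an unadjusted p under 0.05.

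**Figure D3:**
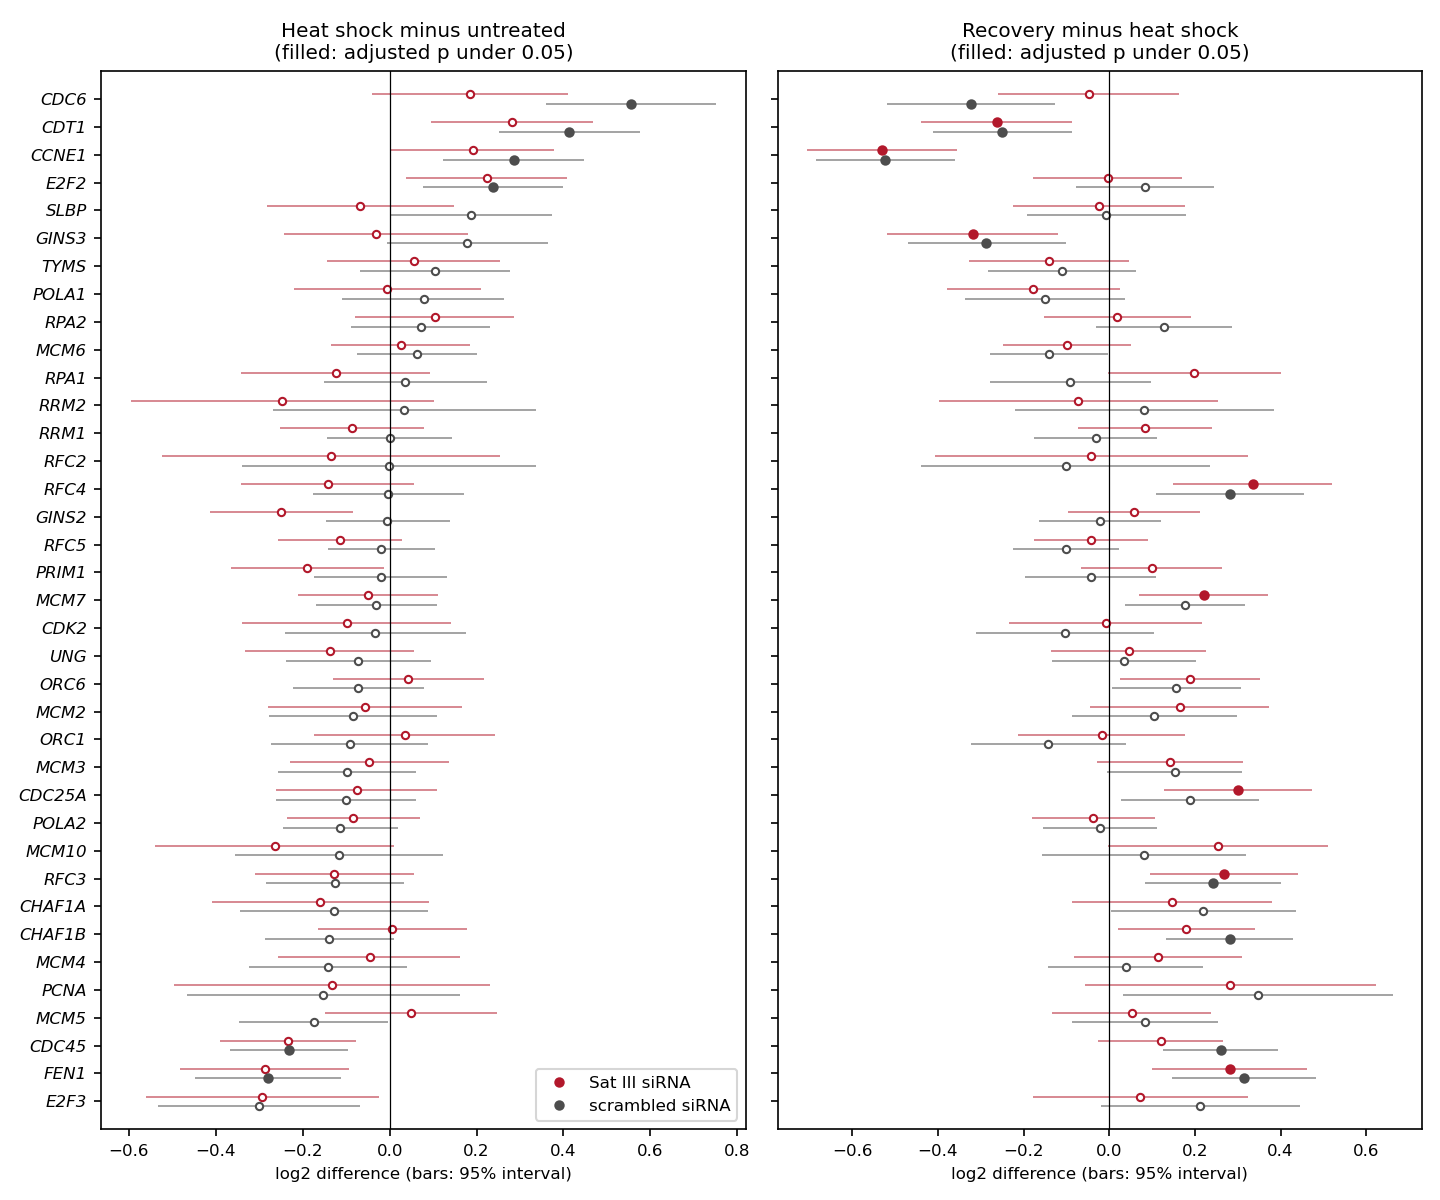
Log2 differences of the 37 members, heat shock minus untreated (left) and recovery minus heat shock (right), in the Sat III arm (red, upper point) and the scrambled arm (grey, lower point), with 95% intervals; filled points had an adjusted p under 0.05. CDC6, CDT1 and CCNE1 lie right of 0 on the left and left of 0 on the right, and no Sat III point is filled on the left.

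More members moved between the end of the heat shock and recovery, as did more of all genes. With Sat III siRNA 8 of 37 were called, 5 higher and 3 lower in recovery (21.6%, against 21.5% of all genes, 11.8% higher and 9.75% lower). With scrambled siRNA 9 of 37 were called, 5 higher and 4 lower (24.3%, against 21.7% of all genes, 12.2% higher and 9.53% lower). These shares are near those of all genes. The medians of the members were 0.06 and 0.04, beside -0.003 for all genes in each arm. CCNE1, CDT1 and GINS3 were lower in recovery in both arms, and FEN1, RFC4 and RFC3 were higher in both. CDC25A, the phosphatase that activates CDK2, and MCM7 were called in the Sat III arm and not in the scrambled arm, and CDC6, CDC45 and CHAF1B the other way round; the difference between arms was not tested for this change.

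RFC4, a subunit of the clamp loader, had 10.76, 10.74, 10.76 and 10.61 in recovering cells, against 10.38, 10.46 and 10.31 at heat shock, with Sat III siRNA. With scrambled siRNA it had 10.69, 10.75, 10.81 and 10.61 in recovery, against 10.46, 10.36, 10.47 and 10.45 at heat shock. Neither pair of groups overlapped, and the differences were 0.335 ± 0.09 with Sat III siRNA (limma adjusted p = 0.0102) and 0.28 ± 0.08 with scrambled siRNA (0.0183). The Sat III call was lost without heat shock replicate 4 (0.30, adjusted p = 0.0522) and on the 15 arrays (0.33, adjusted p = 0.0985). The scrambled one was lost without heat shock replicate 2 or recovery replicate 3 (0.25 to 0.26, adjusted p 0.0553 to 0.0581). Untreated cells had 10.53, 10.62 and 10.43 with Sat III siRNA and 10.52, 10.14, 10.53 and 10.56 with scrambled siRNA. In the scrambled arm recovery was 0.28 ± 0.08 above untreated cells (adjusted p = 0.0343), a call lost without untreated replicate 2, whose 10.14 stands apart, or recovery replicate 1, 2 or 3 (0.18 to 0.29, adjusted p 0.059 to 0.108).

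GINS3 fell in recovery in both arms. With Sat III siRNA it had 9.62, 9.61, 9.83 and 9.78 in recovery, against 10.04, 10.03 and 10.02 at heat shock and 10.15, 9.95 and 10.08 untreated. With scrambled siRNA it had 9.86, 10.06, 9.99 and 10.08 in recovery, against 10.32, 10.29, 10.19 and 10.34 at heat shock and 10.04, 9.84, 10.21 and 10.33 untreated. Recovery and heat shock did not overlap in either arm, with differences of -0.32 ± 0.10 for Sat III siRNA (limma adjusted p = 0.0206) and -0.29 ± 0.09 for scrambled siRNA (0.0241). The Sat III call was lost without heat shock replicate 1, 2 or 4 or recovery replicate 1 or 2 (-0.32 to -0.29, adjusted p 0.0503 to 0.0605). The scrambled call was lost without heat shock replicate 1 or 4 or recovery replicate 1 (-0.28 to -0.24, adjusted p 0.0576 to 0.0871) and on the 15 arrays (-0.30, adjusted p = 0.0534). Against untreated cells, recovery in the Sat III arm gave -0.35 ± 0.10 (0.0201), lost without untreated replicate 1 or 4 or recovery replicate 1 or 2 (-0.34 to -0.31, adjusted p 0.0531 to 0.103) and on the 15 arrays (-0.43, adjusted p = 0.0673).

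CDC25A with Sat III siRNA had 11.22, 11.26, 11.18 and 11.33 in recovery, against 10.85, 10.95 and 11.03 at heat shock and 11.05, 10.98 and 11.03 untreated. The recovery values lay above all others of that arm, and recovery against heat shock gave 0.30 ± 0.08 (limma adjusted p = 0.0125). The call was lost without heat shock replicate 1 (0.25, adjusted p = 0.0712) and on the 15 arrays (0.34, adjusted p = 0.0807). With scrambled siRNA CDC25A had 10.99, 11.11, 11.16 and 11.22 in recovery, against 10.84, 10.94, 10.95 and 11.00 at heat shock and 10.81, 11.20, 11.06 and 11.05 untreated, which overlap (0.19 ± 0.08 against heat shock, adjusted p = 0.0856). In the scrambled arm CDC45 and CHAF1B rose by 0.26 ± 0.07 (0.00579) and 0.28 ± 0.07 (0.00659) from heat shock to recovery; CDC45 lost its call on the 15 arrays (0.23, adjusted p = 0.0674).

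The other 2 genes called here rest on probes that disagree. RFC3, another clamp loader subunit, rose in recovery against heat shock by 0.27 ± 0.08 with Sat III siRNA (limma adjusted p = 0.0237) and 0.24 ± 0.08 with scrambled siRNA (0.027). One further probe of RFC3 gave -0.37 and -0.23 for the same contrasts, neither called. MCM7 rose by 0.22 ± 0.07 with Sat III siRNA (0.033), where a further probe gave -0.12. The same MCM7 probe was called in the scrambled arm at heat shock against untreated, at 0.92 ± 0.18 (adjusted p = 0.00184 over probes), where the brightest probe gave -0.03. The MCM7 call was lost without any of the 3 heat shock arrays or recovery replicate 2, 3 or 4 (0.19 to 0.24, adjusted p 0.0506 to 0.0996). RFC3 lost its Sat III call without heat shock replicate 2 or recovery replicate 3 or 4 (0.21 to 0.25, adjusted p 0.0542 to 0.134), and its scrambled call without heat shock replicate 1, 2 or 3 or recovery replicate 3 or 4 (0.19 to 0.24, adjusted p 0.0573 to 0.104). The Sat III calls of both were lost on the 15 arrays (0.26, adjusted p = 0.109, for RFC3; 0.17, adjusted p = 0.265, for MCM7). Of the 17 members with several tested probes, all probes had the same sign in 8 for heat shock against untreated in the scrambled arm and in 13 for Sat III against scrambled siRNA over the treatments.

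Compared with untreated cells, recovering cells had few changed members. With Sat III siRNA 2 of 37 were called, CCNE1 and GINS3, both lower (5.41%, against 12% of all genes, 6.05% higher and 5.94% lower). With scrambled siRNA 2 of 37 were called, E2F2 and RFC4, both higher (5.41%, against 10.9% of all genes, 5.9% higher and 5% lower). The medians of the members, -0.007 and -0.008, were close to those of all genes, -0.007 and -0.01. One further PCNA probe was higher in recovery in the scrambled arm, by 0.57 ± 0.17 (adjusted p = 0.0439 over probes), while the brightest PCNA probe was not called in any comparison.

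The 17 members called in no comparison are the origin recognition subunits ORC1 and ORC6, the helicase members MCM2, MCM3 and MCM6, the replication factor MCM10, the kinase CDK2, the sliding clamp PCNA with the clamp loader subunits RFC2 and RFC5, the primase members POLA2 and PRIM1, the nucleotide enzymes RRM1, RRM2 and TYMS, the histone mRNA binding protein SLBP and the chromatin assembly subunit CHAF1A. Their largest difference in any of the 9 pairwise comparisons was between 0.135 (POLA2) and 0.348 (PCNA) in size. The residual SD within groups was 0.055 (RFC5) to 0.253 (RFC2) over the members, with a median of 0.105, beside 0.147 over all genes. ORC6 came nearest to a call, with 0.23 in recovery against untreated cells of the Sat III arm (limma adjusted p = 0.0579).

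Genes of the same processes outside the set, from lists taken up with earlier results known, gave these counts. Of 37 tested genes of other fork and licensing factors, 9 were called between the arms over the treatments, 2 higher and 7 lower with Sat III siRNA (24.3%, against the 26.1% of all genes). The largest were ASF1B (a histone chaperone, -0.42 ± 0.09), POLD3 (a subunit of polymerase delta, -0.34 ± 0.05) and MCMBP (an MCM binding protein, -0.31 ± 0.07). Of 18 tested genes of G1/S control (E2F1, CCNE2 and ATR did not pass the detection filter), 12 were called, 5 higher and 7 lower (66.7%). E2F5, CCND1 (cyclin D1) and TFDP1 (the dimer partner of E2F) had the largest differences there, -0.92 ± 0.08, -0.80 ± 0.04 and -0.71 ± 0.05, and each was called in every treatment. Of 7 tested genes of nucleotide supply, DUT (0.17) and NME1 (0.14) were called, both higher (28.6%). At heat shock the G1/S list had 1 gene higher and 0 lower in the Sat III arm, the kinase inhibitor CDKN1B (0.60 ± 0.13), with a list median of -0.08 (5.56% higher, against 4.11% of all genes). In the scrambled arm it had 4 higher and 0 lower, led by CDKN1B (0.76 ± 0.11) and WEE1 (0.73 ± 0.12), with a list median of 0.02 (22.2% higher, against 5.97% of all genes).

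MCM9, a helicase outside the ring of MCM2 to MCM7, was called in all 6 comparisons of treatments. It was lower at heat shock than in untreated cells with Sat III siRNA (-0.40 ± 0.12) and with scrambled siRNA (-0.32 ± 0.10), and it was higher in recovery than at heat shock by 0.94 ± 0.11 with Sat III siRNA and 0.72 ± 0.10 with scrambled siRNA. Of 32 tested genes of G2/M and mitosis, 13 were higher and 0 lower in recovery than at heat shock with Sat III siRNA (median 0.14; 40.6% higher, against 11.8% of all genes). With scrambled siRNA 10 were higher and 0 lower (median 0.19; 31.2% higher, against 12.2% of all genes). TTK (0.51 and 0.39) and KIF2C (0.47 and 0.38), both active in chromosome alignment, were among the largest in both arms. EPCAM, the one detected marker of the epithelial list, was also higher in recovery than at heat shock, by 0.62 ± 0.10 with Sat III siRNA and 0.70 ± 0.09 with scrambled siRNA, at 7.10 to 7.39 and 6.89 to 7.10 in recovery against 6.43 to 6.69 and 6.19 to 6.43 at heat shock. KRT5, KRT14 and SERPINB5 were detected on no array. LUM, 1 of 2 tested markers of the fibroblast and endothelial list, was higher in recovery than at heat shock with Sat III siRNA (0.42 ± 0.14, adjusted p = 0.0311), at 6.41 to 6.63 against 5.85 to 6.32. Among the HEK293T markers VIM was higher in recovery than in untreated cells (0.45 with Sat III siRNA and 0.48 with scrambled siRNA) and NEFM lower (-0.30 and -0.355). NEFL was lower as well with Sat III siRNA (-0.56), but was not called with scrambled siRNA. The part of these markers in the results of recovery was not tested.

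Among called members with a promoter entry, those with and without an E2F word were mixed. Of the 17 called in at least 1 comparison, 10 held one, and of the 16 called in none, 6 did. Of the 10 called between the arms over the treatments, 6 held one (GINS2, E2F3, GINS3, CDT1, E2F2 and POLA1) and 4 did not (RPA1, CCNE1, CHAF1B and UNG). CDC6 and CDT1 hold one and rose at heat shock in the scrambled arm, while CCNE1 rose as well and holds none. MCM6, with 4 matches, was called in no comparison.

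**Figure D4:**
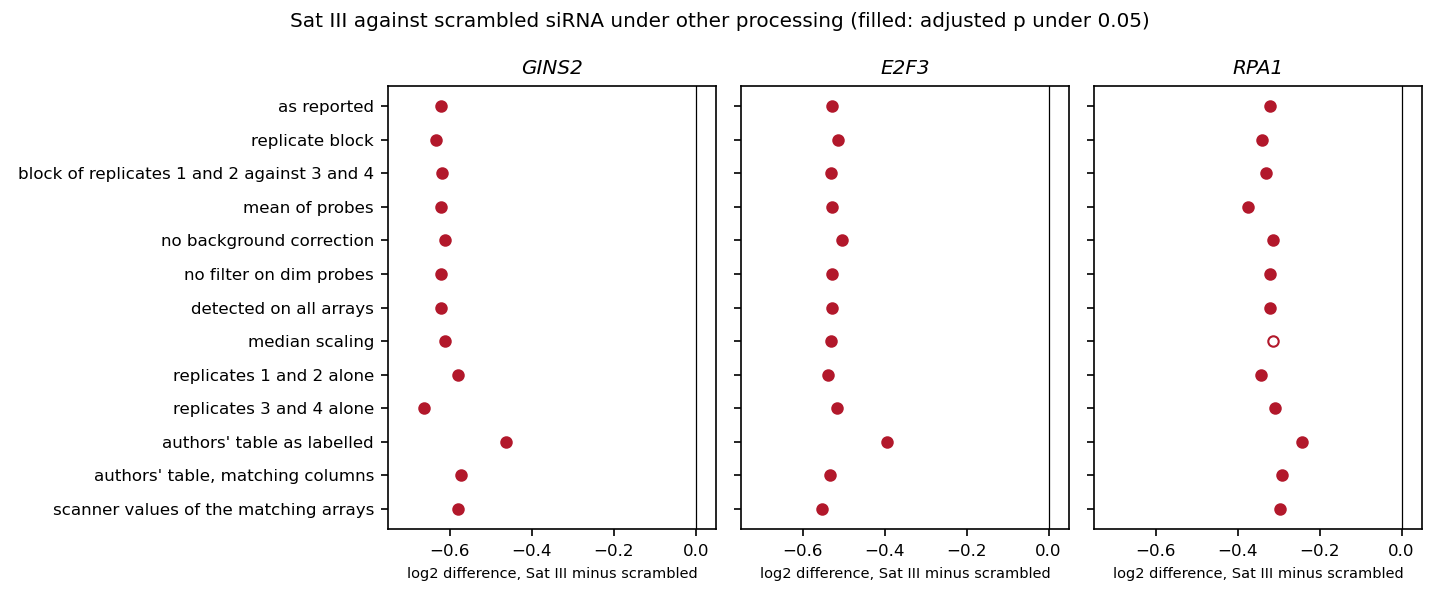
Log2 difference, Sat III siRNA minus scrambled siRNA over the treatments, of GINS2, E2F3 and RPA1 under each processing (rows), with filled points where the adjusted p was under 0.05. GINS2 stays between -0.66 and -0.46, E2F3 between -0.55 and -0.40, and RPA1 is open under median scaling alone.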

How the data were processed

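RNA (300 ng per sample, per the labels) was hybridised to Illumina bead arrays, 22 in all. The authors deposited a scanner table of unnormalised intensity with a detection p-value for each probe and array, per the file headers. No other step is recorded there. The authors' deposited normalised table, intensity values with a median of 56.2 in each column, was used as an alternative only, because 7 of its columns do not match the scanner column of the same label.

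Intensities were background-corrected from the detection p-values, quantile-normalised with an offset of 16 and put on the log2 scale (neqc, limma 3.58.1 in R 4.3.3). Of 48803 probes, 28098 had 1 gene symbol, 13 had several and the others none; symbols were updated by gene number. Testing took probes detected (p-value below 0.01) on 3 or more arrays (15324 probes, 13097 with 1 symbol). The brightest tested probe stood for a gene, giving 10147 genes. A model of 6 group means was fitted to all arrays, 12 comparisons were made with limma, and p-values were adjusted by Benjamini-Hochberg over all genes, with calls at 0.05 and intervals at 95%. The number of arrays limits the precision. Probe-level results were adjusted over the tested probes. The fit was tested on simulated data.

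The members and the gene lists were chosen with earlier results of these data known. All 37 members are named; values on each array are given for called members among the 4 called with the largest change in a comparison, other called members have their fold change, and up to 3 genes are named per other list. MCM9, EPCAM, CD14 and the single probes described were named after their values were seen. Alternatives covered the scaling, background correction, probe filter, probe averaging, blocks, replicates 1 and 2 or 3 and 4 alone, single arrays left out and the authors' table. Promoter sequences come from RefSeq (GRCh38.p14), 300 bases each.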

Additional observations from a re-analysis of the deposited data

Results flagged for a closer look

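In 13 of the 148 combinations of a member and a group of 4 arrays, 1 array stood further from the rest than Dixon's 95% limit; chance gives about 1 in 20. Scrambled untreated replicate 2 accounts for 5 of them. It read 11.73 for MCM2 (the other arrays 11.26 to 11.34), 13.36 for MCM7 (13.20 to 13.21) and 11.58 for UNG (11.33 to 11.37), all high. It read 10.14 for RFC4 (10.52 to 10.56) and 11.05 for TYMS (11.28 to 11.31), both low.

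Scrambled recovery replicate 2 was high for CHAF1A, 8.18 (7.78 to 7.83), and for MCM6, 12.70 (12.56 to 12.59). Scrambled untreated replicate 4 was high for CDK2, 10.56 (10.45 to 10.47), and scrambled heat shock replicate 1 was low for ORC6, 13.42 (13.57 to 13.58). In Sat III recovery, GINS2 was low in replicate 3, 11.19 (11.40 to 11.42), RFC4 was low in replicate 4, 10.61 (10.74 to 10.76), and RRM1 was low in replicate 1, 12.36 (12.52 to 12.54). RPA1 was high there in replicate 2, 11.13, with the others at 10.98.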

How the results depend on the processing

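None of the 50 called member results changed direction under any alternative. All 50 calls held without background correction, with only probes detected on all arrays and with a block of replicates 1 and 2 against 3 and 4; 45 held with no probe filter and 45 with the mean of probes, 37 in the matching columns of the authors' table, 34 with only the groups compared, 29 on the scanner values of the matching arrays, 14 in replicates 1 and 2 alone, 6 in the authors' table as labelled, 5 in replicates 3 and 4 alone and 2 with median scaling, which moved the median of all genes to -0.119 at heat shock in the scrambled arm (-0.022 as reported). The cause was not tested, except that smaller subsets hold fewer arrays. In the authors' table as labelled, moreover, 6 columns hold another array than the scanner column of the same label and 1 matches none. Its counts therefore mix groups and are not a matter of processing alone. GINS2 and E2F3 over the treatments kept their calls in 13 of 13 alternatives, and RPA1 in 12 of 13 (adjusted p = 0.127 with median scaling).

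Counts of called members moved as follows. At heat shock against untreated (scrambled, 6 called) they were 0 in the authors' table as labelled, with median scaling and in replicates 3 and 4, 3 with only the groups compared and 1 in replicates 1 and 2. At recovery against untreated (scrambled, 2) they were 0 in the authors' table, with median scaling and in either pair of replicates, 4 with either block and 1 with only the groups compared. At recovery against heat shock (scrambled, 9) they were 0 in the authors' table and with median scaling, 1 in either pair of replicates and 5 on the matching arrays. For Sat III siRNA, heat shock against untreated (0) gave 2 in the authors' matching columns, 3 with either block, 4 without background correction and 1 on the matching arrays. Recovery against untreated (2) gave 0 in the authors' table, with median scaling and in either pair of replicates, and 1 on the matching arrays. Recovery against heat shock (8) gave 0 in the authors' table, with median scaling and in replicates 3 and 4, 4 in the authors' matching columns and with only the groups compared, and 3 in replicates 1 and 2 and on the matching arrays.

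Between the arms, untreated cells (2) gave 0 in the authors' table, with median scaling and in either pair of replicates, 4 with the mean of probes, and 1 with only the groups compared and on the matching arrays. Heat-shocked cells (3) gave 0 with median scaling and in replicates 3 and 4. Recovering cells (5) gave 1 in the authors' table and in replicates 3 and 4, 0 with median scaling, 3 without a filter and on the matching arrays, and 2 with only the groups compared and in replicates 1 and 2. The mean of the treatments (13) gave 3 in the authors' table and in replicates 3 and 4, 2 with median scaling and 6 in replicates 1 and 2.

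Leaving out each array in turn gave 2 to 5, 1 to 4 and 7 to 8 calls in the scrambled arm (heat shock against untreated, recovery against untreated, recovery against heat shock), 0 to 1, 0 to 2 and 3 to 7 in the Sat III arm, 1 to 2, 2 to 3 and 2 to 6 between arms in untreated, heat-shocked and recovering cells, 10 to 13 over the treatments, and 0 to 0 for both differences between arms. In no comparison did every same-numbered pair deviate together with a correlation over 0.1, so the numbers were not taken as pairs. That limit was missed narrowly for recovery against untreated in the Sat III arm, with 0.099, 0.263 and 0.3. Every pair of replicate 4 arrays lay between 0.165 and 0.334. For recovery against heat shock in the scrambled arm and for the arms in recovery, 3 of 4 pairs were over 0.1. Along the main axis of the deviations from group means (19.6% of their variance), every replicate 1 array lay below 0 and every replicate 4 array above. With the replicate block 49 of the 50 calls held, all but POLA1 over the treatments (adjusted p = 0.0529), with 4 calls for recovery against untreated in the scrambled arm and 3 for heat shock against untreated in the Sat III arm. The brightest probe of each member was detected on all 22 arrays; whether dimmer signal limits calls, as for CDC6 at 6.22 to 7.09, was not tested.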
